A study of Drosophila melanogaster with 20 samples.

Results

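The change from larval to pupal wing without the UAS transgene was described across 15473 transcripts in the 10 control arrays of a 20-array series. Membership followed the sample titles alone: 5 arrays of larval control wings and 5 arrays of pupal control wings, so no measured value chose the samples. The animals were Drosophila melanogaster of the matched control strain that lacks the UAS transgene. Larval control wings came from wandering larvae of the 3rd instar, and pupal control wings from pupae 24 h after pupa formation, staged from white prepupae. Both groups were raised at 18 °C and held at 28 °C for the last 10 h before dissection, as were the 10 arrays of wings that expressed activated Thickveins (Tkv), a BMP receptor. Each sample was total RNA of 10 wings, labelled with Cy3 and hybridised to a NimbleGen array with 3 to 5 probe pairs per transcript. No source used here gives the Gal4 driver, whether the controls carried it, or the sex of the animals.

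The larval wing is a disc, an epithelial sac that grows by cell division and is patterned into compartments, veins and intervein regions. At the onset of metamorphosis a pulse of the steroid hormone ecdysone turns the disc inside out. In the early pupal wing the dorsal and ventral epithelia are brought together, cells leave the division cycle, veins are refined, and the cells later form hairs and cuticle. The basement membrane between the epithelial layers is remodelled on the way.

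The files name transcripts by FlyBase transcript ID. A RefSeq gene table listed 44 of these IDs, 17 of them under a single gene symbol and 27 under several, and only the 17 are named. None of the members of 6 cell type marker lists (wing epithelium, haemocyte, trachea, muscle, neuron and sensory organ, fat body) was among them, so the labelled tissue was not checked against its markers. In dissected tissue, fewer cells of a type and less RNA per cell cannot be told apart.

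The 10 arrays separated by stage. On values quantile-normalized over all 20 arrays, Pearson correlations across transcripts lay between 0.988 and 0.993 among larval arrays, between 0.984 and 0.994 among pupal arrays, and between 0.938 and 0.947 across stages. The first principal component of the 10 arrays held 74.5% of the variance and split larval arrays (-67.66 to -64.27) from pupal arrays (63.97 to 68.25). Pupal replicate 4 stood apart from the other pupal arrays on the second component (5.86% of the variance), at -51.2 against 8.22 to 15.01. It differed by more than 2-fold from the mean of the other 4 pupal arrays for 1013 transcripts, where the other pupal arrays did so for 195 to 446 and the larval arrays for 153 to 458. The difference of array medians and the total numbers of transcripts that passed limma's tests are therefore also given without it. Most other counts rest on all 10 arrays. Before further normalization the array medians were 9.40 ± 0.03 in larval and 9.44 ± 0.10 in pupal wings (log2, mean ± SD, n = 5), a difference of 0.04 (exact two-sided permutation p = 0.484). Without pupal replicate 4 that difference was 0.08 (exact permutation p = 0.0317). Without pupal replicate 2 it was 0.004 (exact permutation p = 0.96). Of the removals of single control arrays, only that of pupal replicate 4 gave a p under 0.05. These p-values are not adjusted for the number of removals.

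A large share of the measured transcripts differed between these stages, in similar numbers in both directions. By limma's moderated test, 3055 transcripts (19.7%) were higher and 3224 (20.8%) were lower in pupal control wings, 40.6% in all at a Benjamini-Hochberg adjusted p under 0.05. At an unadjusted p under 0.05, 7250 passed. Many of these changes were small: 871 of the rises and 849 of the falls were under 1.5-fold. The median rise among transcripts that passed was 0.91 on the log2 scale, and the median fall was -0.86. Over all 15473 transcripts the change had a median of -0.04, a 5th percentile of -1.45 and a 95th percentile of 1.70. At the threshold, the smallest change that passed was 0.19 and the largest that did not was 1.77 in size on the log2 scale. Without pupal replicate 4 the test called 6048 transcripts, 5828 of them called in the same direction with all arrays. Quantile normalization gives all arrays the same distribution, so the balance of rises and falls depends in part on it. Median centring in its place gave 2695 rises and 3267 falls, and no further normalization gave 3020 and 3090.

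**Figure D1:**
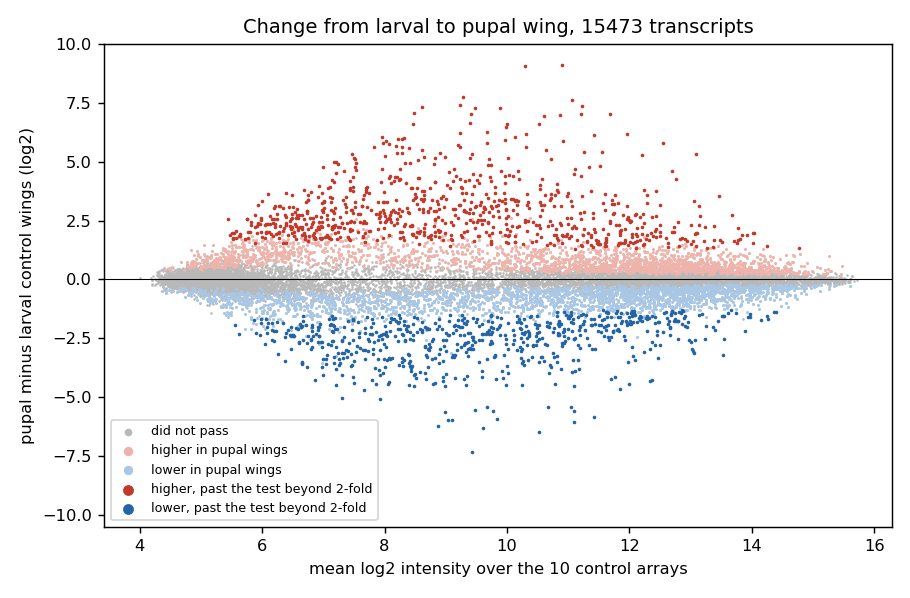
Each point is 1 of 15473 transcripts, with its mean log2 intensity over the 10 control arrays on the x axis and its pupal minus larval difference (log2) on the y axis. Pale colours passed limma's test against 0, and full colours also passed the test for a change beyond 2-fold (802 higher, 674 lower). The differences narrow at both ends of the intensity range.

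A stricter test asked whether a change was larger than 2-fold. It was passed by 802 transcripts that were higher (5.18% of those tested) and 674 that were lower (4.36%), 9.54% in all (limma treat, Benjamini-Hochberg adjusted p under 0.05). Without pupal replicate 4 it was passed by 1471, of which 1418 were shared. From 4-fold up, rises outnumbered falls. Of the transcripts that passed the test against 0, 318 rose and 295 fell by 4-fold to 8-fold. From 8-fold to 16-fold, 162 rose and 120 fell. At 16-fold or more, 131 rose and 58 fell, so that 69.3% of these were rises, against 48.7% over transcripts of any size that passed. The 131 largest rises started from a median larval log2 intensity of 6.41 and reached 11.69. The 58 largest falls went from a median of 11.62 to 6.72. From 1.5-fold to 4-fold the order was the other way, with 801 rises and 1041 falls from 1.5-fold to 2-fold and 772 rises and 861 falls from 2-fold to 4-fold.

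**Figure D2:**
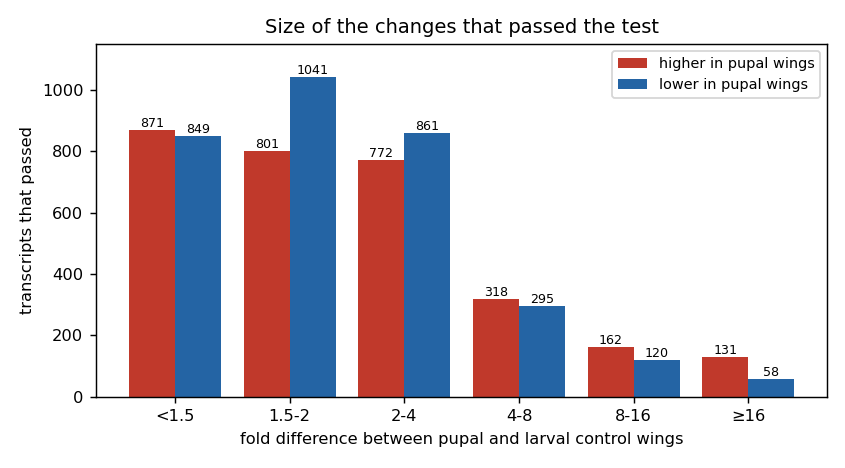
Bars give the number of transcripts that passed limma's test in control wings, by the fold difference between the stages, with rises and falls side by side. Falls are more numerous from 1.5-fold to 4-fold (1041 against 801, then 861 against 772), and rises from 4-fold on (318 against 295, 162 against 120, 131 against 58).

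Arrays of the 2 stages did not overlap for 2444 transcripts that were higher on every pupal array and 2526 that were lower, 32.1% of all transcripts. Of these 4970, 4831 had also passed limma's test in that direction and 139 had not, while 1448 transcripts passed although the arrays of the stages overlapped. For 710 transcripts every pupal array lay at least 2-fold above every larval array, and for 568 at least 2-fold below. Each slide, as inferred from the image names, carried 1 larval and 1 pupal control array, which allows the change to be read within slides. The pupal array was higher on each of the 5 slides for 3418 transcripts and lower on each for 3770, 46.5% of all transcripts. Among those that passed the test, 2807 of the 3055 rises and 2969 of the 3224 falls had their sign on every slide, 92.0% together.

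The share of transcripts that passed depended on the level. Of 1610 transcripts with a mean log2 intensity under 5, 3.85% passed, and of 197 at 15 or above, 13.7% passed. Between 8 and 9 the share was highest, with 65.1% of 811 transcripts. The test beyond 2-fold had the same shape: no transcript passed under 5 or from 15 up, and 29.2% passed between 8 and 9. A mean in the middle of the range is where a transcript that is dim at one stage and bright at the other must lie, and intensities of different transcripts come from different probes. The median standard error of the change was largest between 6 and 7, at 0.27, and 0.09 at 15 or above.

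**Figure D3:**
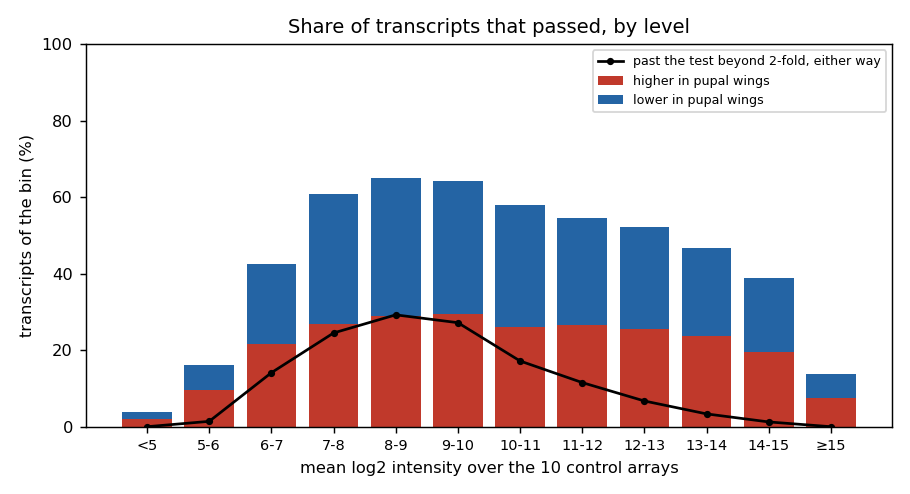
Stacked bars give the percentage of transcripts in each bin of mean log2 intensity that were higher or lower in pupal control wings by limma's test, and the black line the percentage that passed the test beyond 2-fold. Both peak between 8 and 9, at 65.1% and 29.2%.

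Intensities formed a dim mode near 4.99 and a bright mode near 12.6 (log2), parted at 8.78, the lowest point of their density. On this boundary, chosen after the data were seen, 7400 transcripts were bright and 6346 were dim on all 10 control arrays. Another 311 were dim on every larval array and bright on every pupal array, and 228 went the other way. With the boundary 1 lower or 1 higher these counts were 275 and 208, or 291 and 235. Since these transcripts are defined by a change between the stages, the size of their change is a description only. They included 285 of the 802 rises and 181 of the 674 falls beyond 2-fold. Their median change was 3.37 in size among those that became bright and 2.61 among those that became dim. Transcripts bright at both stages made up most of the smaller changes, 1733 rises and 1860 falls with a median size of 0.65, of which 205 rises and 238 falls were beyond 2-fold. Among transcripts dim at both stages 658 rose and 675 fell, 21.0% of that class.

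Among transcripts whose change had 1 sign on each of the 5 slides, FBtr0071744 had the largest measured rise. It read 6.67, 5.67, 8.17, 5.87 and 5.34 on larval arrays 1 to 5 and 15.59, 15.63, 15.29, 15.49 and 15.35 on pupal arrays (log2). The pupal arrays lay close together near the top of the scale, and larval replicate 3 was the highest of the dim larval arrays. The measured difference was 9.13 ± 0.38 on the log2 scale (SE, limma adjusted p = 2.44e-13). All larval values lay below the dim boundary of 8.78 and the pupal values near the upper end of the intensity range, so neither this size nor the order of the largest changes is exact. FBtr0081252 read 5.75, 4.70, 8.35, 4.53 and 5.49 on the larval and 14.98, 14.71, 14.86, 14.58 and 14.99 on the pupal arrays. It rose by 9.06 ± 0.56 (limma adjusted p = 6.42e-11). Larval replicate 3 was again the highest larval array. Across all transcripts, 194 of the 285 that differed by more than 2-fold between this array and the other larval arrays did so toward the pupal level, 68.1% against 58.17 to 64.04% for the other 4 larval arrays. Pupal arrays deviated toward the larval level in 57.6 to 75.2% of such transcripts, with pupal replicate 2 the highest of the 10 control arrays. An array's deviation and the stage difference were both taken from the mean of the other 4 arrays of its stage. That shared mean raises these shares for every array, and a drift toward the other stage was not tested. Without larval replicate 3 the number of transcripts called for the stage change was 5788.

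The largest measured fall was that of FBtr0086982. Its larval arrays read 13.03, 13.27, 12.83, 13.33 and 13.01, and its pupal arrays 7.54, 5.51, 5.62, 4.93 and 5.16. Pupal replicate 1 was the highest pupal array and still far below every larval array. The difference was -7.34 ± 0.35 (SE, limma adjusted p = 1.29e-12). FBtr0087917 read 13.71, 13.99, 13.72, 14.16 and 13.21 in larval wings and 8.78, 9.14, 6.28, 5.86 and 6.46 in pupal wings. It fell by 6.45 ± 0.64 on the log2 scale (limma adjusted p = 6.39e-08). Its pupal arrays fell into a higher pair, replicates 1 and 2, and 3 lower arrays. The files and the table used here give no gene name for these 4 transcripts. In the alternatives of the closing section, both rises lay between 8.75 and 9.70 and both falls between -7.81 and -5.99.

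**Figure D4:**
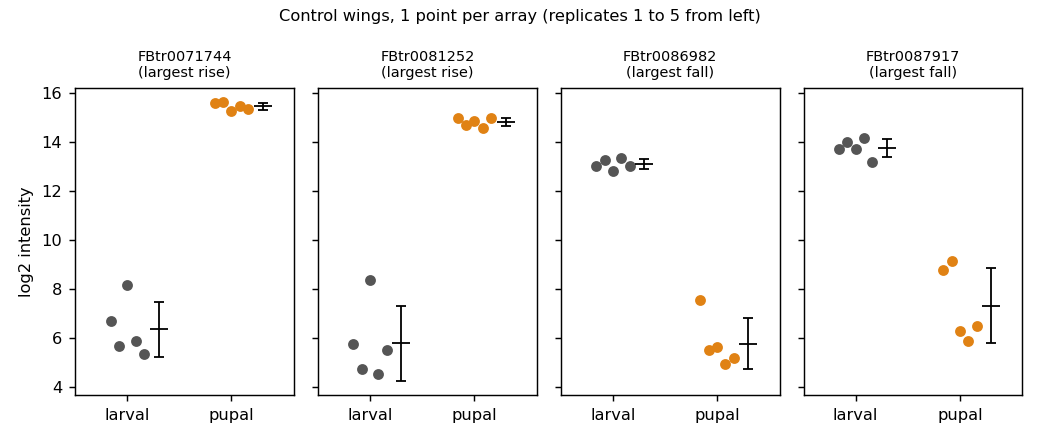
Points are log2 intensities on single arrays of control wings for the 2 largest rises and the 2 largest falls, with the mean and SD (n = 5) beside them. Larval and pupal arrays are separated by more than 4 log2 units in each panel, and the dim stage has the wider spread.

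Of the 17 transcripts with a gene symbol, 4 rose, 6 fell and 7 did not pass limma's test. Arrays did not overlap between stages for 10 of them, and for 32.1% of all transcripts. Their share that passed, 58.8%, stands beside 40.6% of all transcripts and 48.6% of those bright at both stages. Of the 17, 14 were bright at both stages. The changes of the 17 had a median of -0.01 and ran from -4.19 to 0.65. Only 1 passed the test beyond 2-fold, which 9.54% of all transcripts passed. A symbol stands here for 1 transcript, and other transcripts of the same gene may carry other probes. Of 19 lists of wing, signalling and housekeeping genes, 5 held any of these transcripts: chromatin regulators (3 of 26 members), lipid and transport metabolism (2 of 14), histones (1 of 10), basement membrane and integrins (1 of 21), and spectrin and septate junction (1 of 17). The other 14 lists, ecdysone response, cell cycle and DNA replication among them, had no named member.

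LanA encodes the alpha chain of laminin, a structural protein of the basement membrane under the wing epithelia. Its larval arrays read 12.56, 13.46, 12.87, 13.23 and 13.14, and its pupal arrays 11.67, 11.82, 11.09, 11.46 and 10.997. Every pupal array was below every larval array. LanA fell by 3.13-fold (log2 -1.64 ± 0.25, SE, limma adjusted p = 1.52e-05), a change that did not pass the test beyond 2-fold (limma treat adjusted p = 0.0834). Within slides the change of LanA ran from -2.14 to -0.89. The transcript of alpha-Spec, which encodes a subunit of the spectrin skeleton beneath the cell membrane, moved the other way. It read 12.18, 12.37, 12.28, 12.52 and 12.38 in larval and 12.88, 13.19, 12.82, 12.89 and 12.56 in pupal wings. The stages did not overlap, though the gap between larval replicate 4 and pupal replicate 5 was narrow, and the rise was 0.52 ± 0.12 (limma adjusted p = 0.00156).

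NaPi-III, which belongs by its name to the sodium-dependent phosphate transporters, had the strongest change of the 17. Its larval arrays read 11.91, 12.23, 11.87, 11.84 and 12.25 and its pupal arrays 8.34, 7.73, 7.70, 7.79 and 7.61. On the boundary of 8.78 the transcript went from the bright to the dim range on every array. With the boundary 1 lower, at 7.78, pupal replicates 1 and 4 were not dim. Only 0.291% of all transcripts had a more negative change. The measured fall was 18.2-fold (log2 -4.19 ± 0.23, limma adjusted p = 1.15e-11; limma treat adjusted p = 9.53e-10). Fatp1, a fatty acid transport protein, was read at 10.92, 10.57, 10.56, 10.70 and 10.84 in larval and at 11.40, 11.57, 11.07, 11.24 and 11.34 in pupal wings. It rose by 1.52-fold without overlap (log2 0.61 ± 0.12, limma adjusted p = 4.85e-04).

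Among chromatin proteins HDAC3, kis and SuUR, only HDAC3 passed. HDAC3, a histone deacetylase that acts in co-repressor complexes, read 13.64, 13.95, 13.87, 13.82 and 13.68 in larval and 13.39, 13.46, 13.58, 13.57 and 13.25 in pupal wings. The stages were apart by a narrow margin, and the fall was 1.27-fold (log2 -0.34 ± 0.09, limma adjusted p = 0.00391). The kis transcript encodes Kismet, a chromodomain helicase of the trithorax group. It read 13.26, 13.27, 12.99, 13.22 and 13.26 in larval and 14.01, 13.92, 13.34, 13.59 and 13.24 in pupal wings. Pupal replicate 5 lay within the larval range, and the difference of 0.42 ± 0.17 did not pass (limma adjusted p = 0.0541). With the slide as a replicate block it did (limma adjusted p = 0.0315). SuUR, a factor that slows replication of late-replicating chromatin in polytene nuclei, differed by -0.33 ± 0.16 with overlapping arrays (limma adjusted p = 0.116). It passed with the slide as a fixed replicate block (limma adjusted p = 0.0461), but not with the slide as a random block (limma adjusted p = 0.0805). His4r, a histone H4 gene expressed outside the replication-linked cluster, differed by -0.01 ± 0.24 (limma adjusted p = 0.990). Its larval arrays ranged from 10.12 to 11.26 and its pupal arrays from 10.48 to 11.01. The 95% interval of its difference, -0.50 to 0.49, lies on both sides of 0.

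The gene table lists both mio and Wdr24 under GATOR2, a complex that acts upstream of the growth kinase TORC1. The mio transcript read 9.90, 9.53, 9.69, 9.94 and 9.59 in larval and 9.48, 9.35, 9.39, 8.90 and 9.29 in pupal wings. It was lower on each pupal array and fell by 0.45 ± 0.13 on the log2 scale (limma adjusted p = 0.00723). Without replicate 4 of every group its call was lost, at -0.30 and a limma adjusted p of 0.078. Wdr24 differed by -0.31 ± 0.15, a change that did not pass (limma adjusted p = 0.115), with larval arrays from 12.16 to 12.63 and pupal arrays from 11.88 to 12.48. It was lower in pupal wings on each of the 5 slides, although the ranges of the stages overlap.

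Both transcripts of the ubiquitin system were among those that did not pass. Uba1, the ubiquitin-activating enzyme, read from 13.75 to 13.999 in larval and from 13.77 to 14.05 in pupal wings, and its difference was 0.03 ± 0.09 (95% interval -0.15 to 0.21, limma adjusted p = 0.831). The gene rdx (roadkill) encodes a BTB protein that directs the Hedgehog effector Ci to degradation. It was read at 14.63 to 15.03 in larval and 14.83 to 15.09 in pupal wings, and its difference of 0.21 ± 0.10 did not pass (limma adjusted p = 0.102). Of all transcripts with a mean log2 intensity between 13 and 14, the range of Uba1, 46.7% passed, and between 14 and 15, the range of rdx, 38.8% passed.

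The transcript of sle (slender lobes), which encodes a nucleolar protein, fell. It read 12.80, 12.96, 12.61, 12.87 and 12.99 in larval and 11.82, 12.14, 11.59, 11.94 and 11.45 in pupal wings, which made a 2.08-fold fall (log2 -1.05 ± 0.13, limma adjusted p = 2.11e-06). Every pupal array was below every larval array. The transcript of fend (forked end), a gene known from motor axon guidance, read 9.76, 9.84, 9.95, 9.85 and 10.18 in larval and 8.44, 8.58, 8.93, 9.18 and 8.81 in pupal wings. It fell by 2.18-fold without overlap (log2 -1.13 ± 0.18, limma adjusted p = 2.99e-05).

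Dyrk3, a protein kinase of the DYRK family, had the tightest replicates of the named transcripts that rose. Its larval arrays read 12.84, 13.05, 12.88, 12.88 and 12.87 and its pupal arrays 13.62, 13.59, 13.44, 13.57 and 13.53. The SDs were 0.08 in larval and 0.07 in pupal wings, and the rise was 1.57-fold (log2 0.65 ± 0.15, limma adjusted p = 0.00186). CG16974 read 13.02, 12.68, 12.83, 12.93 and 13.07 in larval and 13.73, 13.61, 13.53, 13.50 and 13.34 in pupal wings, a 1.55-fold rise (log2 0.64 ± 0.15, limma adjusted p = 0.00183). The stages did not overlap for either transcript. CG31178 was dim on all 10 arrays, between 4.32 and 5.74, and its difference of 0.06 ± 0.22 did not pass (limma adjusted p = 0.855).

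**Figure D5:**
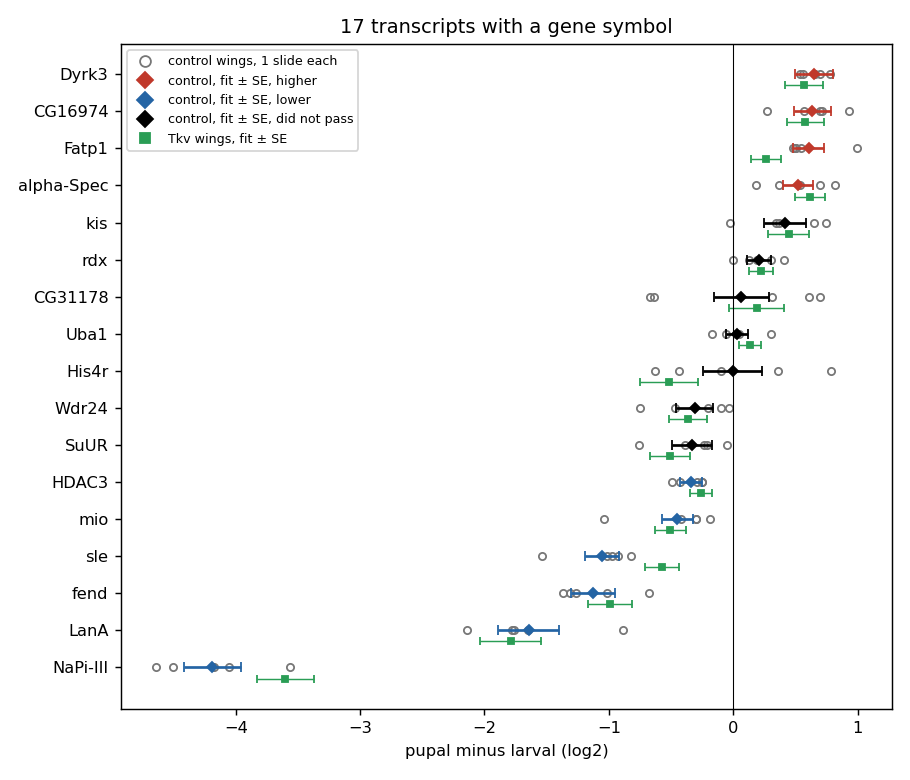
Diamonds give the fitted pupal minus larval difference (log2, ± SE) of control wings for the 17 transcripts with a gene symbol, open circles the difference on each of the 5 slides, and green squares the fitted difference in Tkv wings. NaPi-III at -4.19 lies far outside the range of the others, -1.64 to 0.65.

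The 27 transcripts whose ID the table lists under more than 1 gene were described as a group. Of these, 13 were lower and 2 higher in pupal control wings by limma's test, where 20.8% of all transcripts were lower and 19.7% higher. Their median change was -0.27, with a range from -2.11 to 0.80, and 23 of them were bright at both stages. Among all 7400 transcripts bright at both stages, 1860 were lower and 1733 higher. The balance of falls and rises in this group was not tested. In Tkv wings 12 were lower and 2 higher, with a median change of -0.20.

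Wings that expressed activated Tkv went through the same stages on other arrays, and in them 39.3% of transcripts passed limma's test for the stage change. Of these, 2923 were higher and 3165 lower in pupal wings. Over all 15473 transcripts, 12643 had a stage change of the same sign in control and Tkv wings. Of the 802 rises beyond 2-fold in control wings, 799 were higher and 792 passed the test as higher in Tkv pupal wings. Of the 674 falls, all had the same sign and 663 passed. The median change of these rises was 2.58 in control and 2.40 in Tkv wings, and that of the falls -2.34 and -2.003. Since the transcripts were chosen for a large change in control wings, a smaller median in other samples follows in part from the choice. The fit gives both stage changes of a transcript the same standard error, so the passes in Tkv wings are not independent of that choice. The difference between the 2 stage changes was itself tested as an interaction, which 105 transcripts passed (0.679%). None of the 17 named transcripts and none of the 4 largest changes passed it. Among the named transcripts sle had the lowest p of the interaction (difference 0.48 ± 0.19, unadjusted p = 0.0203, limma adjusted p = 0.466).

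The 3 rises beyond 2-fold that went down in Tkv wings, named after their values were seen, were FBtr0071698, FBtr0087676 and FBtr0071697. FBtr0071698 rose from 5.37 ± 0.35 to 8.60 ± 0.39 in control wings (mean ± SD, n = 5), and changed by -1.71 ± 0.22 in Tkv wings (limma adjusted p = 3.98e-08 for the interaction). FBtr0087676 rose from 8.01 ± 0.34 to 9.96 ± 0.85 in control wings and changed by -0.97 ± 0.30 in Tkv wings (limma adjusted p = 8.59e-04 for the interaction). FBtr0071697 rose by 2.26 ± 0.28 in control wings. In Tkv wings it was bright at both stages, at 13.05 and 12.67, and its change of -0.38 ± 0.28 did not pass there (limma adjusted p = 0.300, and 0.00103 for the interaction).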

How the data were processed

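Each array has a deposited file of intensity values, 1 per transcript on a linear scale, made with RMA per the submitters' processing notes. No source used here gives the version or settings. Each deposited file also holds a score from 0 to 1 that its header calls an error, of unstated unit, and only its zeros were counted. The series table, also deposited, holds the log2 of those intensities to within 5e-09. Groups came from the titles. Slides were inferred from a number in the image name of each array, read here as the slide barcode. On this reading each of 5 slides held 1 array of every group. The replicate number followed the slide.

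Intensities were put on the log2 scale and quantile-normalized over 20 arrays, which assumes equal distributions at both stages. RMA compresses differences near background. All transcripts were kept. The tests came from limma 3.58.1 in R 4.3.3, with 4 group means over 20 arrays (16 residual degrees of freedom), eBayes and treat with a log2 change of 1, two-sided, Benjamini-Hochberg adjusted over 15473 transcripts at 0.05. The fit was tested on simulated data. Files were read with jsonlite 2.0.0, and pandas 2.3.3 and matplotlib 3.10.9 ran in Python 3.11.15. For arrays, their number limits the precision. Nothing says how animals of different samples were related, so the p-values cover only the spread seen among these samples, which may be technical.

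The transcripts described and the 25 gene lists were chosen with earlier results of these data known. The rule named every transcript with a single symbol, and by ID the 2 largest rises and falls that passed with the same sign on 5 slides. Deviations of same-numbered larval and pupal arrays correlated at -0.12 to 0.22, and the pairing comes from the shared slide. Of the 44 IDs matched in the RefSeq table (Release 6), 9 stood as an entry of their own and 35 inside longer synonyms. No source used here gives the genome build of the files, and positions are left out. The alternatives tried were a fixed or random block for the slide, no further normalization, median centring, normalization or fit over the control arrays alone, a filter on the dimmest 25%, the deposited series table, trend and robust eBayes, a threshold of 0.01, and leaving out arrays or replicate numbers. The dim boundary shifted by 1 either way was added after seeing the data.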

Additional observations from a re-analysis of the deposited data

Results flagged for a closer look

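Of 50 groups of 5 control arrays examined, 5 had a single array far apart from the rest. About 1 group in 20 would have one by chance. Larval replicate 2 was high for Dyrk3, at 13.05, and larval replicate 3 was low for kis, at 12.99 (log2 intensities). Pupal replicate 1 was high for NaPi-III, at 8.34, and for FBtr0086982, at 7.54. The deposited error column held 53 zeros in pupal replicate 2, 1 zero in pupal replicate 5 and none on the other 8 control arrays. That rate of chance does not apply to such a count. Pupal replicate 4 was not flagged, either for its deposited median or for its number of transcripts that deviated by more than 2-fold.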

How the results depend on the processing

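In 25 alternatives, the number of transcripts that passed in control wings stayed between 4901 (threshold of 0.01) and 6661 (slide as a replicate block), against 6279, and the number beyond 2-fold between 1246 and 1534, against 1476. No transcript called in both a given alternative and the original fit had opposite directions, and the share of the 6279 that was called again was 78.1 to 100%. With median centring the median change of all transcripts was -0.08, and 45.2% of the calls were rises against 48.7%. The slide as a fixed replicate block changed the calls of kis and SuUR, given above, and no other named call. With the slide as a random block only the call of kis changed (limma adjusted p = 0.0374). Of the named calls, mio was lost in 1 alternative, while kis passed in 7, rdx in 2, and SuUR and Wdr24 in 1 each. Values of His4r (-0.20 to 0.15), CG31178 (-0.12 to 0.25) and Uba1 (-0.0398 to 0.0789) changed sign when single arrays or replicate numbers were left out, and none of them passed in any alternative. The interaction count of 105 was 51 at a threshold of 0.01 and 48 to 99 when arrays were left out, among them 69 without larval replicate 3 of the controls and 57, 48, 57 and 62 without replicate numbers 2, 3, 4 and 5. With single arrays left out, the difference of deposited medians lay between 0.00366 without pupal replicate 2 and 0.0767 without pupal replicate 4 (exact permutation p = 0.0317). The number of transcripts above the dim boundary was higher on pupal arrays by 52.4 to 135.4 (without pupal replicate 4, exact permutation p = 0.00794), against 93.2 with all arrays (exact permutation p = 0.111). Every other removal of a single array gave an exact permutation p of 0.127 to 0.214 for this number and 0.437 to 0.96 for the medians. None of these p-values is adjusted for the number of removals. Quantile-normalized values could not be used for these summaries, since normalization makes them equal. Dim transcripts and those near the top of the scale limit what the arrays show.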

Other observations

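Replicates of one stage disagreed strongly for a few transcripts. The SD over 5 arrays was above 1 on the log2 scale for 112 transcripts in larval and 191 in pupal control wings, 11 of them at both stages. Pupal replicate 4 was the array farthest from the median for 119 of the 191 (62.3%), and in 108 of these it was the higher value. In larval wings replicate 1 was farthest for 43 of the 112, and replicates 3 and 4 for 26 each.

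The transcripts with the widest spread, chosen for it after their values were seen, moved together in larval wings. FBtr0086819 read 5.96, 10.63, 13.16, 7.11 and 11.63 on larval control arrays 1 to 5 and 4.93 to 5.74 on the pupal ones. FBtr0088663 read 5.34, 9.53, 12.30, 5.996 and 10.50 on the same larval arrays and 4.53 to 5.51 on the pupal ones. Both were highest on replicate 3, then 5 and 2, and near the pupal level on replicate 1. On larval Tkv arrays they were steady, at 9.62 to 10.75 and 8.48 to 9.91. FBtr0084351 had the same order of its 3 highest larval control arrays, reading 5.12, 6.48, 10.82, 4.80 and 8.29, but on larval Tkv arrays it lay at 4.92 to 5.50. In pupal control wings the widest spread was that of FBtr0082621, which read 6.66, 10.83, 4.32, 9.91 and 5.81, against 7.31 to 7.92 in larval wings. It was also uneven on pupal Tkv arrays, at 4.81, 4.71, 4.73, 8.71 and 12.78.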
